A study of Mus musculus with 6 samples.

Results

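The mesothelial genes described here were 10 genes, chosen by symbol: Msln, Upk3b, Upk1b, Wt1, Krt19, Krt8, Krt18, Lrrn4, Muc16 and Bnc1. The rows of the table of normalized counts were matched by exact symbol, and 7 of the 10 genes had a row among the 21456 genes of the table. Upk1b, Muc16 and Bnc1 had no row and were not analysed here. A filter on low values (a mean of at least 10 normalized counts over all mice) left 3 of the 7 for testing: Krt19, Krt8 and Lrrn4.

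The data are RNA-seq of adipose tissue from 3 mice labelled control and 3 labelled as depleted of Ntsr2, called Ntsr2 AKO here. Per the paper, its control mice carry Ntsr2 flox/flox and its Ntsr2 AKO mice carry Adipoq-cre::Ntsr2 flox/flox. In each group the mice are numbered 3, 4 and 5, and per the paper's methods the mice used for RNA-seq ate a chow diet. All 6 mice carry the floxed Ntsr2 alleles, and the AKO mice also carry a Cre recombinase driven by Adipoq, a gene of adipocytes. The labels give the tissue as adipose without a depot, and give neither age nor sex. Each value below is a normalized count, which is the number of reads of a gene divided by 1 size factor for each mouse. Library size ranged from 54085088 to 66098226 reads, and 3 reads, taken as the limit that a count of 0 allows, equal 2.76 to 3.11 normalized counts. The labels name no batch, and they do not say whether the samples were prepared separately, so p-values measure only the spread between these samples, which may in part be technical.

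Mesothelium is the single layer of flat cells that lines the body cavities and the surface of the organs within them. It covers visceral fat pads, such as epididymal and mesenteric fat, and is absent from the surface of subcutaneous fat. Its cells have features of both epithelium and mesenchyme: they carry keratins of simple epithelia and surface glycoproteins such as mesothelin, together with the transcription factor WT1. RNA of a whole fat pad can therefore hold mesothelial transcripts if the pad is visceral. In such bulk RNA, fewer cells of a type cannot be told apart from less RNA per cell.

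Several facts of the libraries bear on what follows. Ntsr2 was read at 83.8, 64.0 and 152 normalized counts in control 3, 4 and 5 and at 3.10, 8.29 and 0 in Ntsr2 AKO 3, 4 and 5, so the targeted gene matched the labels. The 8 white adipocyte genes, such as Adipoq, were read in all 6 mice, with a summed normalized count of 1118447 or more in each. Reads of 10 skeletal muscle genes made up 4.07% of control 5, 0.158% of Ntsr2 AKO 4 and 0.336% of Ntsr2 AKO 5, and at most 0.00642% of the other 3 mice. Control 3 held lymph node genes, described below. The 4 Y-linked genes summed to between 11938 and 14472 normalized counts in every mouse, and Xist had at most 29.9. By these genes all 6 mice were male.

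The genes that most narrowly define mesothelium were at or near 0. Msln encodes mesothelin, a surface glycoprotein of mesothelial cells, and lies on chromosome 17 (chr17:25748613-25754378, minus strand, GRCm38). Msln had 5.52, 0 and 20.1 normalized counts in control 3, 4 and 5 and 0, 4.15 and 5.06 in Ntsr2 AKO 3, 4 and 5. In reads, these are 6, 0 and 21 for the controls and 0, 4 and 5 for Ntsr2 AKO. The ranges of the groups overlapped, and the highest value was in control 5, the mouse with the largest share of skeletal muscle reads. The part of that tissue in the value was not tested.

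Upk3b, a uroplakin of urothelium and mesothelium (chr5:136038496-136046487, plus strand), had 3.68 normalized counts (4 reads) in control 3 and 0 in the other 5 mice. Wt1, a transcription factor of mesothelium and of visceral fat progenitors (chr2:105126529-105173616, plus strand), had 3.04 normalized counts (3 reads) in Ntsr2 AKO 5 and 0 in the other 5 mice. Neither gene exceeded 4 reads in any mouse. Summed over Msln, Upk3b and Wt1, control 3, 4 and 5 had 10, 0 and 21 reads and Ntsr2 AKO 3, 4 and 5 had 0, 4 and 8. In control 4 and Ntsr2 AKO 3 all 3 genes were at 0, out of 60405373 and 54679805 reads. None of the 6 samples is labelled as visceral fat, so the level these genes reach in a pad with mesothelium was not measured here.

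Krt8 and Krt18 encode the type II and type I keratins that pair in the filaments of simple epithelia and of mesothelium. The genes are neighbours on chromosome 15, 23697 bases apart: Krt8 on the minus strand (chr15:101996698-102004482) and Krt18 on the plus strand (chr15:102028180-102032027). Krt8 had 73.6, 0 and 7.67 normalized counts in control 3, 4 and 5 and 0, 5.18 and 0 in Ntsr2 AKO 3, 4 and 5. Krt18 had 50.6 in control 3, 4.13 in Ntsr2 AKO 3 and 0 in the other 4 mice. The pair was thus high in control 3 and at no more than 8 reads together in each of the other 5 mice, while control 3 held 135 reads of the pair. Per kilobase of exon, Krt8 and Krt18 in control 3 stood at 37.6 and 35.2 normalized counts.

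Krt8 passed the filter only through control 3. The log2 fold change of Krt8 (Ntsr2 AKO minus control, on the log2(normalized count + 1) scale) was -2.24 ± 1.79 (SE, n = 3 and 3), with a limma adjusted p of 0.752, and the groups overlapped. Without control 3 it was -0.68, with an adjusted p of 0.928 by limma. Exons of Krt8 overlap those of Gm36026 on the other strand, and a processed copy of Krt8 lies elsewhere in the genome. The strand setting of the counting is not given in the sources used here, so reads of these genes may not be told apart.

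The stretches just upstream of Krt8, Krt18 and Lrrn4 are shown because the first pair was read together in control 3 while Lrrn4 was read in every mouse. RefSeq promoter entries (GRCm38.p6) matched 6 of the 10 members by symbol, and each window below ends before the first annotated exon. Capitals mark CG dinucleotides, in the direction of transcription, from chr15:102004483-102004592 (minus strand), chr15:102027966-102028179 (plus strand) and chr2:132880892-132881112 (minus strand).
Krt8: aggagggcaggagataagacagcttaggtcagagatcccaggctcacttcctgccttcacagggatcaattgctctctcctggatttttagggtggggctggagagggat
Krt18: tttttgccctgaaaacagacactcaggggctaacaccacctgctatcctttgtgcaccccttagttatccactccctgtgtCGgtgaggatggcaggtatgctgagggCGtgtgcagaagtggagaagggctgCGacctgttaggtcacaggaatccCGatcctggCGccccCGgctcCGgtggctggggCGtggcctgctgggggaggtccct
Lrrn4: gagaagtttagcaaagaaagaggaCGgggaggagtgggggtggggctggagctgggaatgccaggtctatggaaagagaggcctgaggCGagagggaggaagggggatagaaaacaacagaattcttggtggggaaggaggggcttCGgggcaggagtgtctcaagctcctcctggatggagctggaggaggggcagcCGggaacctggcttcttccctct
The Krt8 window of 110 bases held 0 CG dinucleotides, and 22.5% of 32851 promoter entries have as few in the same window. The Krt18 window of 214 bases held 8, against a median of 5 over all entries. The Lrrn4 window of 221 bases held 4, also against a median of 5. Motifs were searched on both strands. The letters GGGCGG, a GC box, were in none of the 3 windows, and 28.7% of all entries hold them in the window used for Lrrn4, 27.6% in that of Krt18 and 11.6% in that of Krt8. The TATA box, TATAAA, was in none of the windows either, with shares of 9.99%, 9.71% and 5.63% of all entries. The AP-1 letters TGANTCA were likewise in none, with shares of 6.13%, 5.95% and 2.79%.

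Krt19 encodes a type I keratin found in mesothelium and in many simple and ductal epithelia (chr11:100140810-100148665, minus strand). It was read in all 6 mice, at 134, 413 and 84.4 normalized counts in control 3, 4 and 5 and at 68.1, 32.1 and 67.8 in Ntsr2 AKO 3, 4 and 5. The mean was 210 ± 177 over the controls and 56.0 ± 20.7 over the Ntsr2 AKO mice (SD, n = 3 each). Every Ntsr2 AKO mouse lay below every control mouse, with the lowest control value at 84.4 and the highest Ntsr2 AKO value at 68.1. Of the 16157 genes tested, 8.16% had no overlap in this direction and 6.82% in the other.

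The log2 fold change of Krt19 was -1.64 ± 0.63 (SE), with an unadjusted limma p of 0.0369 and an adjusted p of 0.575. At an unadjusted p under 0.05, 5.27% of all genes tested were lower in Ntsr2 AKO mice, so Krt19 was among 852 such genes. It did not pass the adjusted threshold. DESeq2, which called 219 genes (1.36% of those tested), gave Krt19 an adjusted p of 0.149. Control 4 held the highest value, and without it the log2 fold change was -0.99, with an adjusted limma p of 0.599.

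Krt19 and its usual partner Krt8 were highest in different mice. In control 4, where Krt19 was highest, Krt8 and Krt18 were at 0, and so were Krt7 and Krt5. In control 3 all of these were read, at 73.6 for Krt8, 50.6 for Krt18, 14.7 for Krt7 and 22.1 for Krt5. Over the 6 mice the Pearson correlation of Krt19 with Krt8 on the log2 scale was -0.09, a description over 6 points that share library depth within each mouse.

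Lrrn4 encodes a leucine-rich repeat membrane protein described in mesothelial cells (chr2:132868305-132880891, minus strand). It was the steadiest of the members, with 120, 57.8 and 52.8 normalized counts in control 3, 4 and 5 and 108, 106 and 71.9 in Ntsr2 AKO 3, 4 and 5. The highest value was 2.27 times the lowest, against 12.8 times for Krt19. The groups overlapped, since control 3 was above all Ntsr2 AKO mice and the other 2 control mice were below them. The log2 fold change was 0.39 ± 0.41 (SE), with a limma adjusted p of 0.807. Without control 3 it was 0.75, with an adjusted limma p of 0.628.

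Of the 3 members tested, 0 passed the adjusted threshold of 0.05 with limma, and 1 (Krt19) had an unadjusted p under 0.05. edgeR and DESeq2 also called 0 of them, and Krt19 had an unadjusted p of 0.0270 with edgeR and 0.00416 with DESeq2. Over all genes limma called 1 gene, or 0.00619% of those tested, and this gene was not Ntsr2. Ntsr2 itself had a log2 fold change of -4.81 with a limma adjusted p of 0.499. A member that did not pass is therefore not shown to be unchanged. The median log2 fold change was -1.64 over the 3 tested members and -0.01 over all genes. The median of the members is the value of Krt19 itself.

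Per kilobase of exon, the members ranked by median over the 6 mice as Krt19 (41.1 normalized counts), Lrrn4 (23.9), Msln (1.5), Krt8 (1.32), and Krt18, Upk3b and Wt1 (0). The range of Krt19 was 17.3 to 222 and that of Lrrn4 was 14.2 to 32.2, so these neighbours in the order overlapped. Msln (0 to 6.57) and Krt8 (0 to 37.6) overlapped as well. Krt19 and Lrrn4 were above Msln in each of the 6 mice.

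Depot genes were looked up beside the mesothelial genes. Tbx15, Shox2, En1, Hoxc9, Hoxc10 and Pitx1 are developmental transcription factors known to be higher in subcutaneous than in visceral fat of mice. All 6 had more than 3 reads in each of the 6 mice. Per kilobase of exon, Hoxc10 ranged from 703 to 1227 normalized counts, Hoxc9 from 329 to 468, Shox2 from 278 to 381, Tbx15 from 213 to 1287 and En1 from 70.5 to 133. Pitx1 was low, at 2.72 to 15.9. The highest values of Tbx15, Hoxc10, En1 and Pitx1 were all in control 5, the mouse with the most skeletal muscle reads. The part of muscle in these values was not tested. Without control 5, En1 still ranged from 70.5 to 101 and Tbx15 from 213 to 398.

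Each subcutaneous gene other than Pitx1 was above Msln, Upk3b, Wt1 and Lrrn4 per kilobase in every mouse. In control 4, however, Krt19 (222 per kilobase) was above Tbx15 (213) and En1 (71.2). Control 3 likewise had more Krt19 (72.4) than En1 (70.5). None of the 6 subcutaneous genes passed the test between the genotypes, with limma adjusted p from 0.750 to 0.978. Their log2 fold changes ran from -0.36 (Tbx15) to 0.71 (Pitx1), with 4 above 0 and 2 below, beside 7921 above and 8236 below over all genes tested. None had an unadjusted limma p under 0.05, beside 1349 of all 16157 genes tested.

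**Figure D1:**
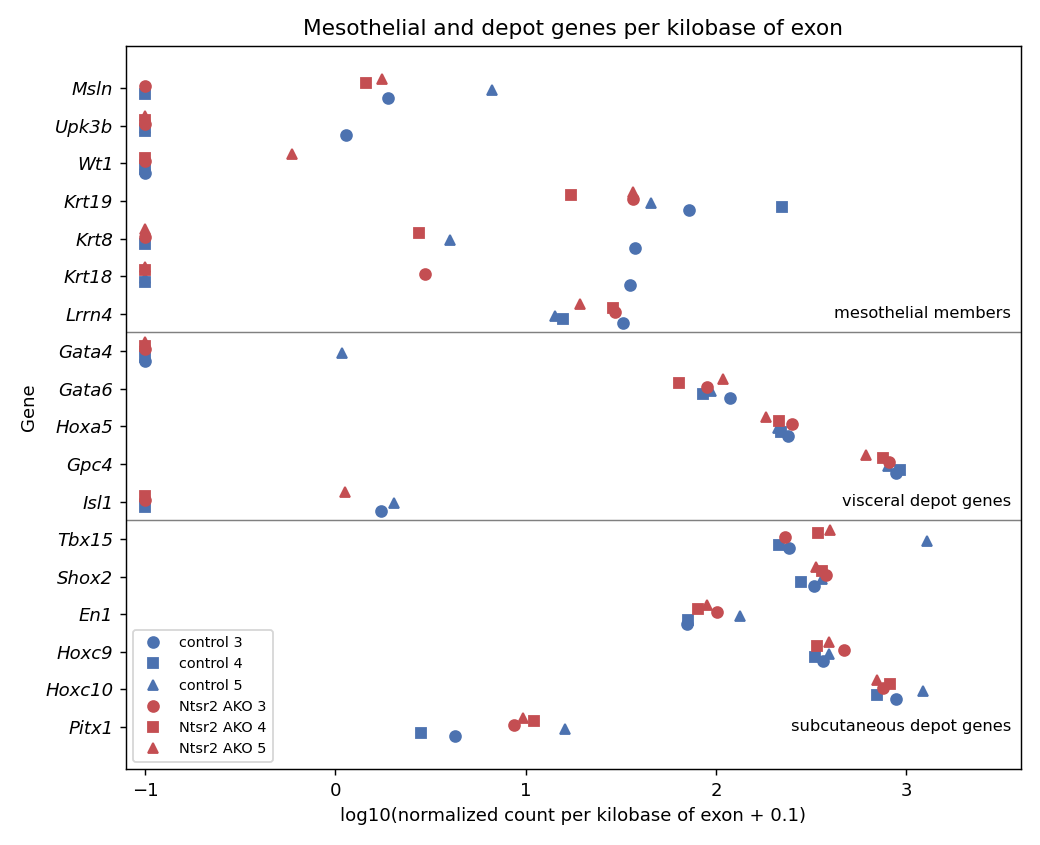
Log10(normalized count per kilobase of exon + 0.1) of the mesothelial members, 5 visceral and 6 subcutaneous depot genes in the 3 control (blue) and 3 Ntsr2 AKO (red) mice. Msln, Upk3b, Wt1, Gata4 and Isl1 lie under 10 normalized counts per kilobase in all mice and Pitx1 in 4 of 6, whereas the other subcutaneous genes and Gata6, Hoxa5 and Gpc4 lie above 60 in all mice.

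The list of genes known to be higher in visceral fat was split. Gata4, a transcription factor of the mesothelium and visceral organs, had 3.84 normalized counts in control 5 and 0 in the other 5 mice. Isl1, a LIM homeobox factor of visceral preadipocytes, had 6.44, 0 and 7.67 in control 3, 4 and 5 and 0, 0 and 4.05 in Ntsr2 AKO 3, 4 and 5. Both were thus near the floor. Gata6, Hoxa5 and Gpc4 were instead read in every mouse, from 418 to 775 normalized counts for Gata6, 345 to 472 for Hoxa5 and 1637 to 2463 for Gpc4. These 3 genes are known to be enriched in visceral fat but are also expressed elsewhere. The sixth gene, Tcf21, had no row and was not analysed here. None of the 3 tested passed, with log2 fold changes from -0.27 to -0.06 and limma adjusted p from 0.642 to 0.946.

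In each of the 6 mice Hoxc9, Hoxc10, Shox2, Tbx15 and En1 had 185 normalized counts or more, and Upk3b, Wt1 and Gata4 had 4 reads or fewer. Gata6, Hoxa5 and Gpc4 of the visceral list and the members Krt19 and Lrrn4 were also read in each mouse, and Pitx1 of the subcutaneous list was low (7.22 to 42.2 normalized counts), so the lists did not all point one way. No mouse stood apart as having all of Msln, Upk3b and Wt1. Genes of the epididymis, which lies against epididymal fat, were also looked up. Of the 8 on the list, 6 had no row. Gpx5 had 4.13 normalized counts in control 4 and 0 in the others, and Rnase10 had 12.4 to 51.6. Among 6 sperm genes, 4 had a row and the highest value in any mouse was 4.80. No sample here is labelled as epididymal fat, so the level of epididymis and sperm genes in such a pad was not measured. Their low values therefore do not settle the depot. Of the 4 ovary genes, which cannot inform on the depot in mice that were male by the Y-linked genes, Foxl2 reached 12.1 and Amh 22.7. The kidney gene Nphs1 had 20.2 in control 3 and 0 in the others, and the only pancreas gene with a row, Cel, reached 4.05. Skeletal muscle, mammary and lymph node genes, from tissues in or beside subcutaneous fat, are given in other paragraphs. Lymph nodes also lie in mesenteric fat.

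A further 16 genes named in mesothelium were looked up, and 15 had a row. Of these, 10 had more than 3 reads in each of the 6 mice, and 13 were tested. Per kilobase of exon the most abundant were Cldn15, a claudin (824 to 1467 normalized counts), Pdpn, podoplanin (250 to 1267), and Bcam, a laminin receptor (429 to 633). These 3 genes are also known from other cells, among them endothelium, lymphatic vessels and fibroblasts. Others read in every mouse were lower per kilobase, with Dmkn at 38.3 to 275, Ildr2 at 22.2 to 120, Gpm6a at 22.5 to 48.8, Rspo1 at 13.8 to 37.1, Aldh1a2, a retinoic acid enzyme, at 11.0 to 60.6 and Slpi, a protease inhibitor, at 3.50 to 16.6. Crb2 was at 0 in 4 mice and reached 4.60 normalized counts.

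Of the 13 further genes tested, 0 passed the limma adjusted threshold in either direction, with adjusted p from 0.600 to 0.951. At an unadjusted limma p under 0.05 the count was also 0, beside 1349 of all 16157 genes tested. A total of 9 had a log2 fold change below 0 and 4 above, with a median of -0.33 beside -0.01 over all genes. Over all genes tested, 8236 were below 0 and 7921 above. The highest value was between 1.47 (Bcam) and 12.0 (Pkhd1l1) times the lowest in the genes read in every mouse. Krt7, a simple epithelial keratin, had 14.7, 0 and 0 normalized counts in control 3, 4 and 5 and 8.26, 24.9 and 35.4 in Ntsr2 AKO 3, 4 and 5. The groups overlapped through control 3, and the log2 fold change was 3.04 ± 1.33 (SE, limma adjusted p = 0.600). Krt7 passed the filter through the Ntsr2 AKO mice, where its mean was 22.9 against 4.91 in the controls.

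**Figure D2:**
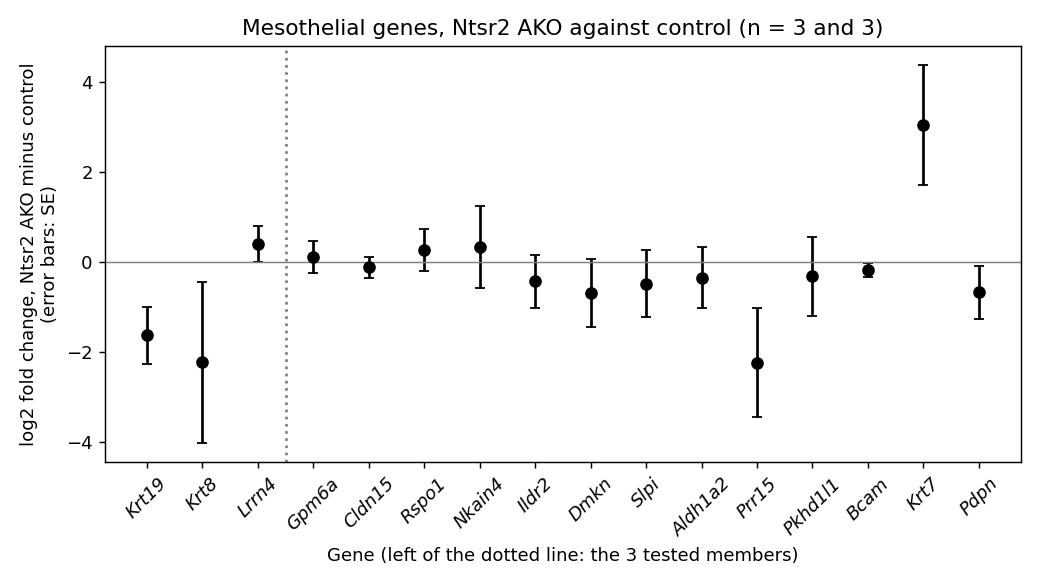
Log2 fold change (Ntsr2 AKO minus control, log2(normalized count + 1) scale) with its SE for the 3 tested members and the 13 tested further mesothelial genes. Krt19 lies at -1.64, Krt8 at -2.24 and Krt7 at 3.04, and none passed the adjusted threshold.

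Most other epithelial genes looked up were also highest in control 3, some of them narrowly. On the epithelial list, Epcam had 23.9 normalized counts in control 3, 7.22 in control 4 and 0 in the other 4 mice. Cldn4, a tight junction claudin, had 29.5 in control 3, 4.13 in control 4 and 0 in the others. Cdh1, E-cadherin, had 86.5 in control 3 and 29.0 to 39.5 in the other 5 mice. Elf3 had 1.84 in control 3, under the limit of 3 reads, and 0 in the others. Cldn7 and Grhl2 did not follow that mouse. Cldn7 was at 0 in control 3 and at 9.28 in control 4, and Grhl2 was at 0 in control 3. Esrp1 and Cldn3 were only narrowly highest in control 3: Esrp1 had 13.8 there and 13.5 in Ntsr2 AKO 4, and Cldn3 had 20.2 there and 18.2 in control 5. The summed normalized count of the 8 epithelial genes was 176 in control 3 and 46.4 to 68.1 in the others. Of the 8, 2 were tested, and the limma adjusted p was 0.787 for Cdh1 and 0.991 for Cldn3.

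Most genes of mammary epithelium with a row were highest in the same mouse. Krt14 and Krt5, the keratin pair of basal cells, had 21.2 and 22.1 normalized counts in control 3, and at most 3.84 and 0 in the other mice. Csn3, a milk casein, had 21.2 in control 3 and 0 in the other 5 mice. Elf5, a transcription factor of luminal cells, had 14.7 in control 3 and at most 4.80 elsewhere. Trp63, by contrast, was read in all mice at 332 to 912. Over the whole list the sum was 801 in control 3, below the 912 of Ntsr2 AKO 5 and close to the 784 of Ntsr2 AKO 3, so the whole list did not follow control 3. With Trp63 left out, a choice made after its values were seen, the 5 remaining mammary genes with a row summed to 92.0 in control 3 and to at most 8.63 in any other mouse. Several of these genes are also known from other stratified and glandular epithelia. Skin genes gave no such pattern: Krt1 and Krt15 were at 0 in control 3, and Krt10 was read in all mice at 116 to 332.

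The summed level of lymph node genes was also highest in control 3. Ccl21a, a chemokine of lymph node stroma and lymphatic vessels, had 948 normalized counts in control 3, 33.0 in control 4, 14.4 in control 5 and 14.5, 29.0 and 193 in Ntsr2 AKO 3, 4 and 5. Glycam1, a ligand of high endothelial venules, had 111 in control 3, 5.06 in Ntsr2 AKO 5 and 0 in the others. Fcer2a and Cxcr5 had 69.0 and 106 in control 3, and at most 29.0 and 38.4 in the other mice. Ms4a1, of B cells, was instead highest in Ntsr2 AKO 5, at 38.5 against 30.4 in control 3. Madcam1 was low and highest in Ntsr2 AKO 4, at 6.22 against 2.76 in control 3. The 7 genes summed to 1269 in control 3, of which Ccl21a was the largest part, and to 39.3 to 281 in the other mice. None of the 5 tested passed, with limma adjusted p from 0.874 to 0.983. The part of epithelial or lymph node tissue in the Krt8 and Krt18 values of control 3 was not tested. Msln, Upk3b and Wt1 together had 10 reads in that mouse.

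**Figure D3:**
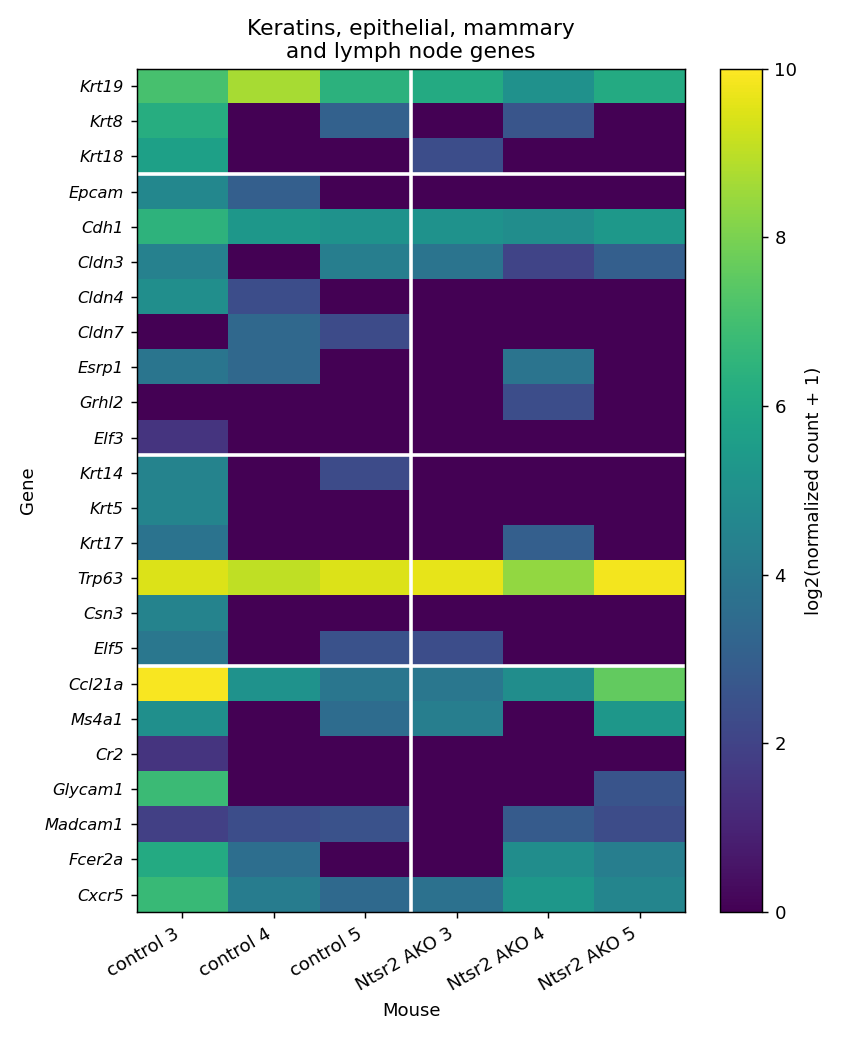
Log2(normalized count + 1) of Krt19, Krt8 and Krt18 and of the epithelial, mammary and lymph node genes with a row (separated by white lines) in each mouse. Control 3 is the column with reads of Krt8, Krt18, Krt14, Krt5, Csn3 and Glycam1 together, and Krt19 is highest in control 4.

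The 3 tested members did not share a pattern over the 6 mice. Beside the -0.09 of Krt19 with Krt8, the Pearson correlation was -0.43 for Krt19 with Lrrn4 and 0.38 for Krt8 with Lrrn4. Their mean z-score, an average of genes that differ, was 1.06, -0.02 and -0.31 in control 3, 4 and 5 and -0.13, -0.09 and -0.52 in Ntsr2 AKO 3, 4 and 5. Among 12565 other genes with a mean of at least 100 normalized counts, the 10 with the highest Pearson correlation to it over the 6 mice were Dda1, Tmem209, Dock8, Rnf19a, Ccr7, Akna, Rasal3, 1110059M19Rik, Cxx1c and Pqbp1, with r from 0.973 to 0.986. All 10 were highest in control 3, which the choice fixes, since the score itself stands out in control 3 and holds Krt8, a gene that passed the filter only through that mouse. Ccr7, the receptor for the chemokine of Ccl21a, had 501 normalized counts in control 3 and 16.2 to 64.0 in the other mice. Dock8, a guanine nucleotide exchange factor of leukocytes, had 2950 in control 3 and 550 to 1045 in the others. With 6 points that share depth within a mouse, such correlations are a description.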

How the data were processed

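RNA-seq of adipose tissue from 3 control and 3 Ntsr2 AKO mice was analysed. Per the study's methods, Trimmomatic was used for trimming, HISAT2 for alignment and StringTie for quantification, and the submitters' processing notes name mm10. The deposited table holds a signal, the normalized count, made by the authors: as read from the values, each is a read count over the size factor of its mouse. Dividing a column by its smallest value above 0 gave whole numbers (within 0.01) for 100% of its values, which recovered the reads. StringTie takes counts from coverage, so library sizes are approximate, and the limit of 3 reads covers counting error only. The number of mice limits precision more than depth does. Values were tested as log2(normalized count + 1) in R 4.3.3 with limma 3.58.1 (a linear model with empirical Bayes moderation and a trend) over all 6 mice without covariates. The test covered 16157 genes whose mean was 10 or higher, with adjustment after Benjamini and Hochberg and calls under 0.05. On this scale the change of low genes is understated. Alternatives on the recovered reads were edgeR 4.0.16 and DESeq2 1.42.0, and the procedures were tested on simulated data. Of 200 genes changed there, limma and edgeR each called 62.5% and DESeq2 79%. Unchanged genes called were 10 with limma, 9 with edgeR and 74 with DESeq2. The other alternatives were pseudocounts of 0.1 and 5, testing of every gene, a mean of 50 or higher, quantile normalization, TMM factors, no trend, a block for the mouse number and the omission of each mouse. The omission of the 3 mice with skeletal muscle reads was chosen after seeing the data. The members and the gene lists were chosen with earlier results of these data known. Every member with a row is given in each mouse, and other genes come from the lists or from the rule on like patterns (the highest Pearson r with the mean z-score of the tested members). A few genes of the lists are not reported here. Genes outside these were named after their values were seen. Gene positions, strands and exon lengths are from GENCODE M21 (GRCm38, the assembly that mm10 denotes), and promoter sequences are from RefSeq.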

Additional observations from a re-analysis of the deposited data

How the results depend on the processing

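No member and no further mesothelial gene passed the adjusted threshold under any alternative run. The log2 fold change of Krt19 stayed between -2.13 and -0.99 over 17 alternatives, with adjusted p from 0.149 to 1.0 and an unadjusted p under 0.05 in 10 of them. That of Krt8 lay between -3.96 and -0.68 over 16 alternatives, and that of Lrrn4 between 0.17 and 0.75 over 17, and no sign turned. Krt8 was left out by a mean of at least 50. The count of members with an unadjusted p under 0.05, which was 1, became 0 without the 3 mice with skeletal muscle reads, and ranged from 0 to 1 over the omission of each mouse. Leaving out the muscle mice leaves 2 control mice and 1 Ntsr2 AKO mouse, which is assumed to vary like the controls, so a lost call there says little: Krt19 kept a log2 fold change of -1.78 with an adjusted limma p of 1.0. Without control 4 the 1 member was Krt8 and not Krt19. The count of genes past the adjusted threshold, which was 1 with limma, was 219 with DESeq2 and 0 with edgeR (1323 genes at an unadjusted p under 0.05). It was also 0 without the filter, 0 without the trend and 0 on the omission of any mouse, and 0 in the small comparison without the muscle mice. With the replicate number as a block it was 0, and 0 members had an unadjusted p under 0.05. The block changed no other call. Deviations of same-numbered mice correlated at 0.45, -0.24 and 0.41 for numbers 3, 4 and 5, so the numbers were not taken to pair the mice. The causes were not tested. Depth limits Msln, Upk3b, Wt1, Krt8 and Krt18, whose values of 0 allow up to 3 reads.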

Other observations

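The keratin family was looked at beyond the members, after the values were seen. The table held 15 type I and 15 type II keratins by symbol. Those with more than 3 reads in all 6 mice were Krt10, Krt19, Krt20, Krt36 and Krt222 of type I and Krt79 and Krt80 of type II. Krt79 had 117 to 250 normalized counts, Krt80 53.6 to 70.9 and Krt36 87.3 to 320. Type II keratins were thus read in control 4 despite its 0 for Krt8, Krt7 and Krt5, with Krt79 at 199 and Krt80 at 56.7 there. Krt13, a type I keratin of stratified epithelium, had 38.2 in control 4, 3.84 in control 5 and 0 in the other 4 mice. Krt20 was highest in Ntsr2 AKO 5, at 134, against 13.4 to 43.3 in the others.

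Genes read mainly in a single mouse, likewise chosen after their values were seen, showed what stood beside the keratins in control 3 and control 4. In control 3, Dsc3 and Dsg2, desmosomal cadherins of epithelium, had 61.7 and 27.6 normalized counts and were at 0 in the other 5 mice. Muc15, a membrane mucin, had 23.0 in control 3 and 0 elsewhere. Of B cell genes, 2 were highest in the same mouse, with Pax5 at 124 against at most 7.26 elsewhere and Cd79a at 231 against at most 37.3, while Ms4a1 was highest in Ntsr2 AKO 5 (38.5, against 30.4 in control 3). In control 4, Chga, a granin of neuroendocrine cells, had 124 against at most 10.1 elsewhere, Gzmb, a granzyme, had 329 against at most 90.1, and Vdr, the vitamin D receptor, had 388 against at most 99.8. Sfrp5, a secreted Wnt antagonist, had 5113 in control 3 against at most 494 in any other mouse.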
